A study of Sus scrofa with 10 samples.

Results

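The 17-beta hydroxysteroid dehydrogenases (HSD17B) were examined in ovaries of gilts that had received recombinant pig follicle-stimulating hormone (rpFSH) or saline. The members were the protein-coding loci of the deposited gene table that carry 1 of 10 listed HSD17B symbols, and where a symbol had several loci the one selected on the largest summed count was taken. Of the 10 symbols, 8 were found, and each of these had 1 protein-coding locus, so the summed count decided none. The 8 loci belong to a table of 43499 loci, of which 19972 are protein-coding. The control group held 5 pigs and the rpFSH treatment group 5 pigs, with 1 ovary library per pig. All 10 gilts shared a birth day and a genetic background, and all had been fed altrenogest, a synthetic progestin that holds back estrus, in a daily dose of 20 mg over 18 days that began when they were 210 days old, with 2 days off afterwards. The rpFSH treatment group was then given 1000 IU of rpFSH, a protein made in CHO cells, and the controls the same volume of saline. The sample labels write the hormone as fpFSH. The ovaries were frozen at 234 days of age with the follicles of the surface taken off, so the values describe what was left of the ovary.

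HSD17B enzymes share a name for their action on carbon 17 of steroids, where they switch a hydroxyl group and a keto group and so turn weak estrogens and androgens into strong ones or the reverse. In the ovary, HSD17B1 of granulosa cells makes estradiol from estrone, HSD17B2 runs in the opposite direction, and HSD17B6 acts on androgens and on retinol-like substrates. Most of the other members have a main task outside steroid hormones. HSD17B4 is the multifunctional enzyme of peroxisomal beta-oxidation, HSD17B7 is a ketosteroid reductase of cholesterol synthesis, HSD17B12 reduces ketoacyl chains in the elongation of very long fatty acids, HSD17B8 takes part in fatty acid synthesis in mitochondria, HSD17B10 oxidizes branched fatty and amino acids there and is a subunit of mitochondrial RNase P, and HSD17B14 is a soluble enzyme that oxidizes estradiol and other substrates.

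Of the 8 loci, 5 carried an HSD17B name alone. HSD17B2 lies on chromosome 6 at 6292794 to 6360707, HSD17B4 on chromosome 2 at 123313440 to 123403088, HSD17B6 on chromosome 5 at 22089491 to 22114378, HSD17B7 on chromosome 4 at 87720127 to 87743069 and HSD17B12 on chromosome 2 at 18458890 to 18611765, all in Sscrofa11.1. The remaining 3 loci were merged from neighbouring genes, so their values add several genes together. The HSD17B8 locus (chromosome 7, 25242292 to 25249786) also holds SLC39A7, a zinc transporter. The HSD17B10 locus (chromosome X, 46144920 to 46220910) also holds SMC1A, a cohesin subunit, and the HSD17B14 locus (chromosome 6, 54107684 to 54170638) also holds BCAT2 and PLEKHA4. No value of these 3 loci belongs to the HSD17B gene alone.

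HSD17B1 and HSD17B11 stood under no locus name. The RefSeq gene HSD17B1 (chromosome 12, 20269468 to 20271349) falls inside a locus named COASY,NAGLU, and no value is given for it here. A locus named HSD17B13 (chromosome 8, 131502335 to 131571368) is described in the table as estradiol 17-beta-dehydrogenase 11, an enzyme of lipid droplets, and was not counted as a member. Its FPKM (fragments per kilobase of length, scaled to library size) ranged from 2.94 to 7.45 in the controls and from 2.99 to 4.92 in the rpFSH treatment group. HSD17B3, the enzyme that makes testosterone in the testis, had counts between 0 and 20.

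Total counts per pig ranged from 64873797 to 75114003, and the limit that a count of 0 allows, set at 3 counts, was 0.0399 to 0.0462 CPM and covers counting error only. Ovarian markers were present in each pig, among them FSHR, GDF9 and STAR. Libraries differed in the markers of luteal cells, the steroid-making cells of the corpus luteum. The summed FPKM of the 8 luteal markers found of 9 listed was 2787 in control pig 2, 1497 in rpFSH pig 1 and 370.3 in rpFSH pig 4, against 32.3 to 71.3 in the other pigs. Within this list OXT, a peptide hormone of the corpus luteum, was listed at 0 in 7 pigs. The 13 markers of oviduct-type epithelium found of 15 listed summed to 71.5 in control pig 2 and 134 in control pig 5, against 5.13 to 16.3 elsewhere. In whole ovary, fewer cells of a type and less RNA per cell cannot be told apart.

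The 6 loci with a mean above 1 FPKM were detected in all 10 pigs, and HSD17B6 and HSD17B2 were low. By mean FPKM over 10 pigs, HSD17B4 came first with 14.5 ± 19.7 (SD, n = 10), followed by the HSD17B8 locus with 10.8 ± 2.33, HSD17B12 with 10.7 ± 8.71, the HSD17B14 locus with 7.45 ± 5.79, the HSD17B10 locus with 7.33 ± 0.888, HSD17B7 with 6.12 ± 5.97, HSD17B6 with 0.875 ± 1.04 and HSD17B2 with 0.201 ± 0.468. The ranges of each pair of neighbours in this order overlapped. HSD17B12 exceeded the HSD17B14 locus, and HSD17B7 exceeded HSD17B6, in 10 of 10 pigs. HSD17B4 owed its first place to a single pig, since it exceeded the HSD17B8 locus in 2 of 10 pigs and ranked below it by the median (8.36 against 11.1 FPKM). FPKM is a level per length, and the length that count and FPKM imply is 16.4 kb for the HSD17B10 locus and 12.6 kb for the HSD17B14 locus against 3.07 kb for HSD17B7, so the merged loci are compared with single genes only roughly.

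**Figure D1:**
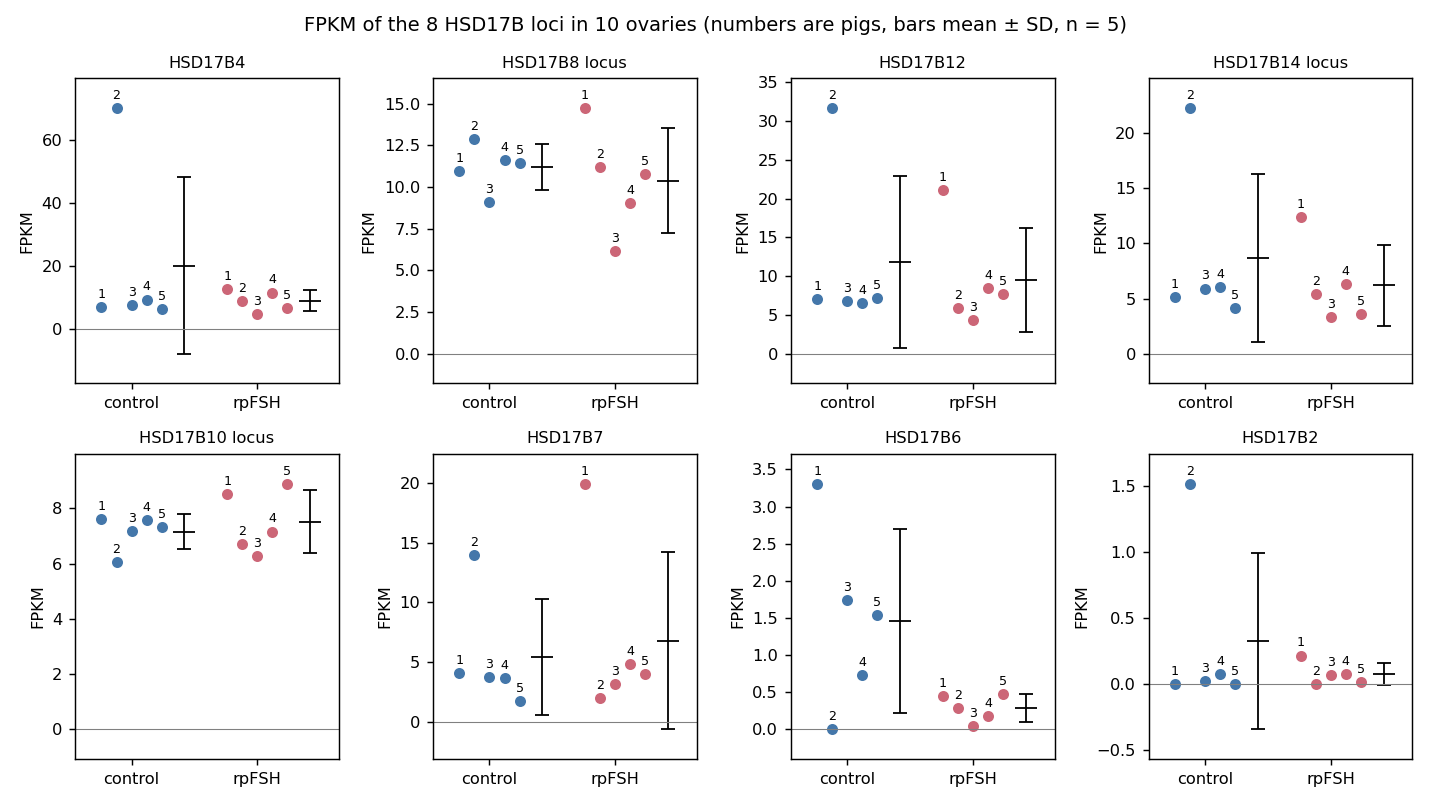
FPKM of the 8 HSD17B loci (y axes, each with its own scale) in the control and rpFSH pigs. Points are pigs with their number and bars are mean ± SD (n = 5). Control pig 2 is the highest control, and rpFSH pig 1 the highest of its group, for HSD17B2, HSD17B4, HSD17B7, HSD17B8, HSD17B12 and HSD17B14.

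Whether rpFSH changed the family was asked with limma on log2 (FPKM + 1), two-sided, over the 15170 protein-coding loci with a mean of at least 0.1 FPKM. A call needed an unadjusted P under 0.05 together with a log2 ratio of the mean FPKM of the groups beyond 1 in either direction. All 8 loci were tested, and 1 of them, HSD17B6, was called, where 1.13% of all tested loci were called and 0.883% were called as lower. By the same limits edgeR called 0 of the 8, where it called 3.09% of all tested loci, and DESeq2 called HSD17B6, where it called 3.47%. Without control pig 2, limma called 1.33% of all tested loci and again HSD17B6 alone among the members. HSD17B2 passed the filter on low values only through control pig 2. After Benjamini-Hochberg adjustment, 0 of the tested loci had an adjusted p under 0.05 in limma or in edgeR, while 460 had an unadjusted P under 0.05 in limma and 722 in edgeR. With DESeq2 on the counts 86 loci passed, with no member among the 6 for which it gave a P. The median log2 ratio of the 8 loci was -0.40, beside -0.08 over all tested loci, and turned to 0.23, beside -0.07, when control pig 2 was left out. Both medians count HSD17B2, whose ratio of -2.11 over all pigs was tied to control pig 2 by the filter.

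HSD17B6 was lower in the rpFSH treatment group. Its FPKM in control pigs 1 to 5 was 3.31, 0.0001 (the floor of the table, with a count of 0), 1.74, 0.727 and 1.54. In rpFSH pigs 1 to 5 it was 0.455, 0.287, 0.0465, 0.176 and 0.477. The rpFSH pigs all lay below the control median, and 4 of 5 controls lay above every rpFSH pig, but control pig 2, where no read was counted, was the lowest of all. The counts behind these values were 546, 0, 281, 135 and 286 for control pigs and 83, 54, 8, 31 and 83 for rpFSH pigs. A count of 0 in control pig 2 allows up to 0.0403 CPM.

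The group means of HSD17B6 were 0.288 ± 0.183 FPKM with rpFSH and 1.46 ± 1.24 without it (SD, n = 5 each), a log2 ratio of -2.34. On the log2 (FPKM + 1) scale the limma difference was -0.79 with an SE of 0.32 and a 95% interval from -1.50 to -0.07 (limma P = 0.0339, adjusted p = 1.00), and a two-sided exact permutation test of the mean FPKM gave p = 0.0714, where the smallest p that 5 against 5 pigs allow is 0.00794. From the counts, edgeR gave a log2 fold change of -2.26 with an unadjusted P of 0.0638, which ends the call, and DESeq2 an unadjusted P of 0.0271 (adjusted p = 0.628). Without control pig 2 the log2 ratio was -2.66 (limma P = 0.00103, adjusted p = 0.938), and the exact permutation p was 0.00794, the smallest that 4 against 5 pigs allow. Control pig 2 was the only control not above every rpFSH pig. Leaving it out thus sets the groups apart, so these p-values add no support. Of all tested loci, 1.40% had all rpFSH pigs below the controls other than pig 2, a comparison chosen after the values were seen. Leaving out control pig 1, 3 or 5 or rpFSH pig 2, 3 or 4 ended the call, with the log2 ratio between -2.34 and -1.80.

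Markers of theca cells, the androgen-making cells of the follicle wall, moved with HSD17B6 in part. The 7 theca markers, all found, summed to 176, 19.7, 269, 215 and 71.6 FPKM in control pigs 1 to 5. They summed to 51.1, 158, 37.5, 78.9 and 115 FPKM in rpFSH pigs 1 to 5. INSL3, a peptide hormone of theca cells, was 0.351 FPKM in control pig 2 and 2.79 in rpFSH pig 3, the pigs with the least HSD17B6. Other markers of the list followed it in part. PTCH1 (2.15 FPKM), GLI1 (0.0869) and ANPEP (2.62) were lowest of all pigs in control pig 2. In rpFSH pig 3, however, ANPEP (16.3 FPKM) and NR2F2 (11.7) were highest of all pigs. CYP17A1 was lowest in rpFSH pig 3 (0.686 FPKM), but was lower in control pig 5 (2.58) than in control pig 2 (5.46). Summed oviduct-type markers did not overlap between the groups, at 11.1 to 134 FPKM in the controls and 5.13 to 9.32 in the rpFSH pigs. That gap rested on MAL2, which held 10.9 of the 16.3 FPKM in control pig 1. It held 6.35 of 12.1 FPKM in control pig 3 and 3.93 of 11.1 in control pig 4. Without MAL2 the sums of the groups would overlap. Of these 13 markers MAL2 alone had all rpFSH pigs below all controls (0.678 to 3.24 against 3.93 to 14.03 FPKM), as did 0 of the 8 members and 0.547% of all tested loci. FOXJ1, which defines ciliated cells, was 5.82 FPKM in control pig 2, 14.1 in control pig 5 and at most 0.212 elsewhere. The part of theca or epithelial cells in the difference of HSD17B6 was not tested.

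**Figure D2:**
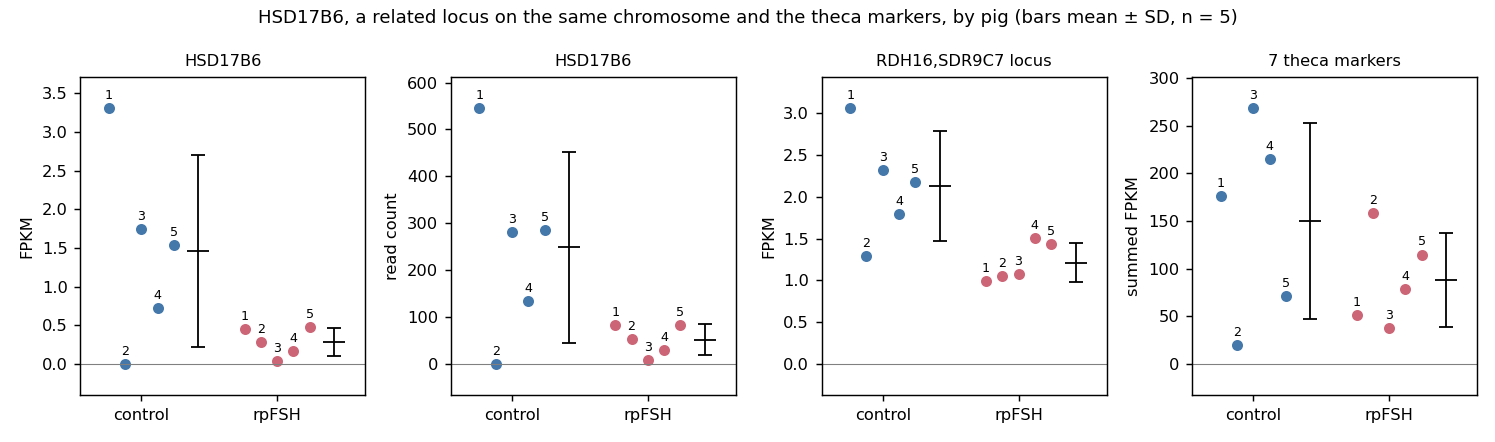
HSD17B6 as FPKM and as read count, the RDH16,SDR9C7 locus (FPKM) and the summed FPKM of 7 theca markers in the control and rpFSH pigs. Points are pigs with their number and bars are mean ± SD (n = 5). Control pig 2 has a count of 0 for HSD17B6 and the lowest theca sum (19.7), and 4 of 5 controls lie above all rpFSH pigs for HSD17B6.

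HSD17B2, the enzyme that inactivates estradiol, was near the limit of detection in most pigs. Its counts in control pigs 1 to 5 were 0, 348, 6, 19 and 0, and in rpFSH pigs 1 to 5 they were 51, 0, 14, 17 and 4. Control pig 2 alone held 1.52 FPKM, and rpFSH pig 1 came next with 0.217. The log2 ratio of -2.11 (limma P = 0.424, exact permutation p = 0.817) became 1.50 when control pig 2 was left out.

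HSD17B4 differed between pigs more than any other member by the SD of log2 (FPKM + 1), 1.02. In control pigs 1 to 5 its FPKM was 7.07, 70.2, 7.73, 9.34 and 6.32, and in rpFSH pigs 1 to 5 it was 12.7, 8.99, 4.64, 11.6 and 6.68. Control pig 2 stood 8.39 times above the median of the 10 pigs, whereas rpFSH pig 1 stood 1.52 times above it, and the other 4 controls lay inside the range of the rpFSH pigs. The log2 ratio was -1.18 (limma P = 0.432, exact permutation p = 0.762) and turned to 0.23 without control pig 2. An unannotated locus inside HSD17B4 on the opposite strand (chromosome 2, 123338221 to 123343239) also had its highest value in control pig 2, 4.97 FPKM against 1.47 to 2.87 in the other pigs, and the counting is not stated to use strand.

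HSD17B7 and HSD17B12 were high in both pigs rich in luteal markers. For HSD17B7, the cholesterol synthesis enzyme, the controls had 4.12, 14.01, 3.73, 3.64 and 1.74 FPKM and the rpFSH pigs 20.0, 2.02, 3.13, 4.84 and 4.04. Its highest value was thus in rpFSH pig 1 and the next in control pig 2, with the groups otherwise overlapping. The log2 ratio of 0.32 (limma P = 0.792, exact permutation p = 0.667) rose to 1.04 without control pig 2 and was -0.63 without rpFSH pig 1.

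For HSD17B12, the elongation enzyme, the controls had 7.06, 31.7, 6.77, 6.54 and 7.16 FPKM and the rpFSH pigs 21.1, 5.92, 4.39, 8.48 and 7.72. The same pigs led, here with control pig 2 first, and the other 8 lay between 4.39 and 8.48. The log2 ratio was -0.32 (limma P = 0.713, exact permutation p = 0.675) and 0.47 without control pig 2.

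The HSD17B14 locus followed this pattern. It had 5.11, 22.3, 5.91, 6.02 and 4.18 FPKM in the controls and 12.4, 5.42, 3.30, 6.29 and 3.63 in the rpFSH pigs, a log2 ratio of -0.49 (limma P = 0.491, exact permutation p = 0.571) that became 0.23 without control pig 2. The HSD17B8 locus stayed between 6.16 and 14.7 FPKM, also with rpFSH pig 1 (14.7) and control pig 2 (12.9) first but at 1.33 and 1.16 times the median of the 10 pigs, with a log2 ratio of -0.11 (limma P = 0.479, exact permutation p = 0.587). The HSD17B10 locus was the steadiest, between 6.06 and 8.89 FPKM, and there control pig 2 was the lowest of the 10. Its log2 ratio was 0.07 (limma P = 0.642, exact permutation p = 0.532), with a 95% interval of the difference on the log2 (FPKM + 1) scale from -0.20 to 0.31. For HSD17B4 and HSD17B7 this interval ran from -1.74 to 0.80 and from -1.06 to 1.35, so that a change of 1 on that scale lay inside it.

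**Figure D3:**
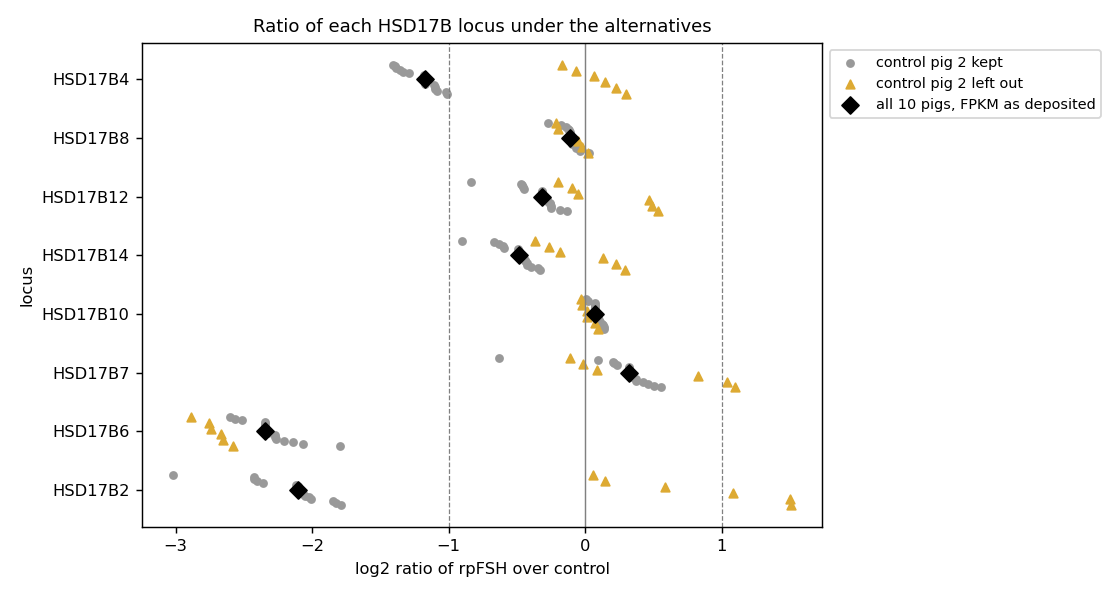
Log2 ratio of rpFSH over control (x axis) for each HSD17B locus, with the value from all 10 pigs (diamond), the alternatives that keep control pig 2 (grey) and those that leave it out (triangles). The dashed lines mark -1 and 1. The limma coefficient (-0.79 for HSD17B6) is not drawn. All drawn values of HSD17B6 lie below -1, while HSD17B4 moves from -1.18 to values around 0 and HSD17B2 from -2.11 to above 0 when control pig 2 is left out.

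Set against the median of the 10 pigs, 5 of the 8 loci were at least 2-fold up in control pig 2, where 13.9% of all tested loci were, and 4 of 8 in rpFSH pig 1, where 7.50% were. HSD17B2 had to be high in control pig 2 to be tested at all, and without it the counts were 4 and 3 of 7. The loci at least 2-fold up were HSD17B2, HSD17B7, HSD17B12 and the merged HSD17B14 locus in both pigs and HSD17B4 in control pig 2. HSD17B6 was the only member at least 2-fold up in control pigs 1, 3 and 5, with 7.10, 3.73 and 3.29 times the median, where 3.30%, 2.30% and 12.1% of all tested loci were. No member was in control pig 4 (3.78% of all tested loci) or in rpFSH pigs 2 to 5 (3.31%, 4.69%, 5.14% and 3.28%). Control pig 2 was the highest of the 10 pigs for HSD17B2, HSD17B4, HSD17B12 and the HSD17B14 locus, and for 17.8% of all tested loci. STAR, which brings cholesterol into mitochondria, was 532 FPKM in control pig 2, 448 in rpFSH pig 1 and 121 in rpFSH pig 4, against 1.52 to 5.67 in the other pigs. CYP11A1, which makes pregnenolone from it, was 1758, 787 and 178 FPKM in these pigs and 4.85 to 34.4 elsewhere. In rpFSH pig 4, where these markers were also raised, HSD17B4, HSD17B7 and HSD17B12 were 1.38, 1.24 and 1.19 times the median. The part of luteal cells in the values of the members was not tested.

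**Figure D4:**
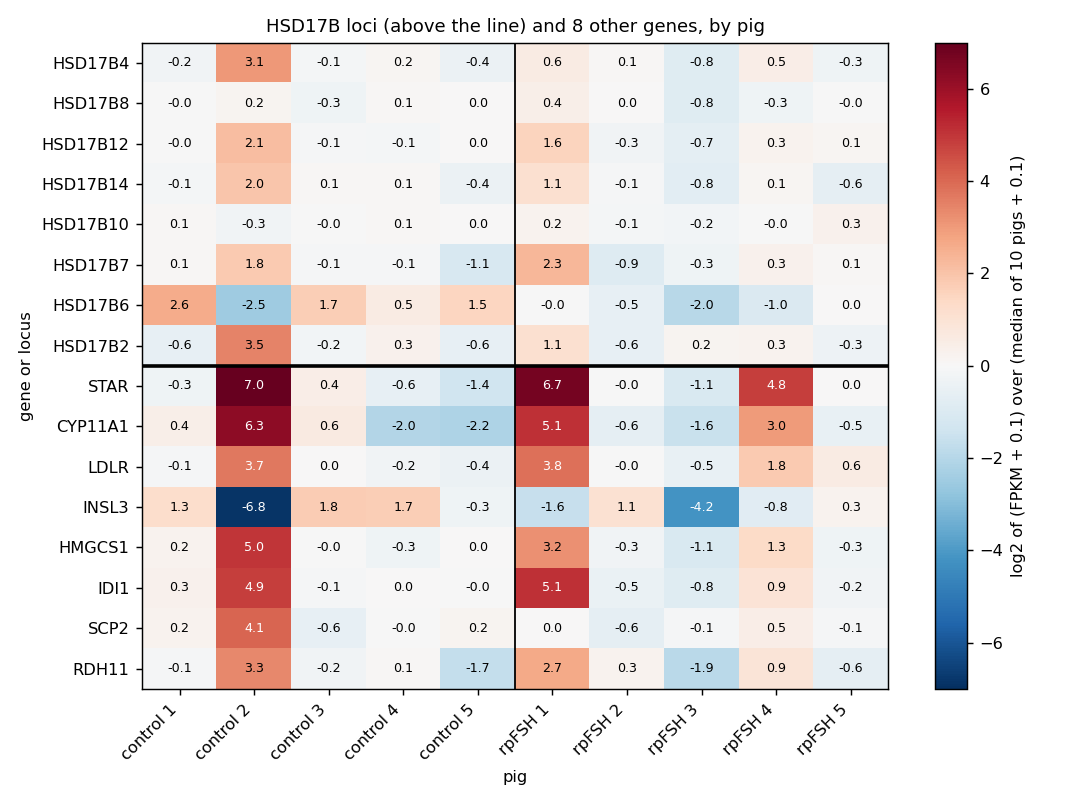
Log2 of FPKM + 0.1 over the median of 10 pigs + 0.1 (colour and printed value) for the 8 HSD17B loci above the line and 8 other genes below it, by pig. Control pig 2 and rpFSH pig 1 are red for STAR, CYP11A1, HMGCS1 and IDI1 and for HSD17B7, HSD17B12 and HSD17B14, whereas SCP2 and HSD17B4 are strongly red in control pig 2, and INSL3 and HSD17B6 are blue there.

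Across pigs, the log2 (FPKM + 1) of the 8 loci was compared in all 28 pairs by a permutation test of Pearson's r, adjusted over the pairs. In 8 pairs the adjusted p was under 0.05, each of them with a positive r and among HSD17B2, HSD17B4, HSD17B7, HSD17B12 and the HSD17B14 locus. The share of passing pairs among other loci was not computed, so this number cannot be read as particular to the family. Control pig 2 was the highest of the 10 pigs for 17.8% of all tested loci. Spearman's rho passed in 1 of them, HSD17B4 with the HSD17B14 locus, whose values also hold BCAT2 and PLEKHA4. The number fell to 1 without control pig 2, to 1 without rpFSH pig 1 and to 5 without rpFSH pig 4. HSD17B2 entered 3 of the 8 pairs. Since these pigs stand apart from the rest, no r over the 10 pigs is given. Among the other 7 pigs 0 of 28 pairs passed, and the smallest exact permutation p was 0.00516 (adjusted p = 0.144), again for HSD17B4 with the HSD17B14 locus.

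The pathways in which the members work were followed with 7 lists of 155 symbols, of which 131 were found. They covered 121 tested loci, and 0 of these were called by limma, 2 by edgeR and 0 by DESeq2. Of all tested loci 1.13%, 3.09% and 3.47% were called by these tools. An unadjusted P under 0.05 in limma was reached by 1 of them, the RDH16,SDR9C7 locus, where 3.03% of all tested loci reached it. The loci called by edgeR were CYP1A1, an enzyme that hydroxylates estrogens, with 2.20 FPKM in control pig 5 and at most 0.0562 elsewhere, and SCP2.

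Sterol synthesis enzymes, the pathway of HSD17B7, shared its pigs. Of the 19 tested loci, 16 were at least 2-fold above the median of the 10 pigs in both control pig 2 and rpFSH pig 1, where 3.59% of all tested loci were, and 2 were in rpFSH pig 4. The median of the list was 7.66 times in control pig 2 and 7.11 times in rpFSH pig 1. HMGCS1, which makes the precursor of mevalonate, had 9.45, 265, 7.84, 6.47 and 8.25 FPKM in the controls and 73.5, 6.66, 3.74, 20.5 and 6.58 in the rpFSH pigs. IDI1, the isopentenyl diphosphate isomerase, was highest in rpFSH pig 1 with 217 FPKM and in control pig 2 with 179, against 3.39 to 11.7 in the other pigs. The exceptions were LBR, ERG28 and PMVK. Between the groups the median log2 ratio of the list was -0.04, with 0 loci called, and it became 1.11 without control pig 2, when rpFSH pig 1 is no longer balanced by a control.

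Peroxisomal beta-oxidation, the pathway of HSD17B4, had more loci raised in control pig 2 than in rpFSH pig 1, as did the table as a whole. Of 20 tested loci, 8 were at least 2-fold above the median in control pig 2 and 3 in rpFSH pig 1. SCP2, the sterol carrier and thiolase, had 51.5 FPKM in control pig 2 and between 1.89 and 4.08 in the other pigs. Its log2 ratio was -2.12 (limma P = 0.282, exact permutation p = 0.500) and -0.01 without control pig 2. The list had a median log2 ratio of -0.14, with 2 of 20 loci above 0, and a median of 0.01 without control pig 2.

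Elongation of very long fatty acids, the pathway of HSD17B12, had a median log2 ratio of -0.16 over 11 tested loci, and of 0.04 without control pig 2. HACD3, its dehydratase, averaged 11.1 ± 1.71 FPKM in rpFSH pigs and 12.5 ± 2.75 in controls (SD, n = 5 each). HACD3 had 15.6 FPKM in control pig 2 and 12.7 in rpFSH pig 1, where HSD17B12 had 31.7 and 21.1. ELOVL5, an elongase of polyunsaturated chains, was 13.6 FPKM in control pig 2 and 7.42 in rpFSH pig 1, against 3.56 to 6.75 in the others. The list of mitochondrial fatty acid synthesis, mitochondrial RNase P and the branched-chain steps beside HSD17B8 and HSD17B10 had a median log2 ratio of -0.27 over 11 tested loci, and of 0.0088 without control pig 2. In it ACADSB, which works on branched short chains at a step ahead of HSD17B10, had 24.4 FPKM in control pig 2 and 3.57 to 8.52 in the others. NDUFAB1, the acyl carrier protein, had 13.3 FPKM in rpFSH pig 1 and 3.94 to 8.16 elsewhere.

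Retinoid and other short-chain dehydrogenases are the relatives of HSD17B6. The RDH16,SDR9C7 locus, which holds a retinol dehydrogenase and its neighbour (chromosome 5, 22227889 to 22296191), lies on the chromosome of HSD17B6. It had 3.06, 1.29, 2.32, 1.80 and 2.17 FPKM in the controls and 0.994, 1.06, 1.08, 1.50 and 1.43 in the rpFSH pigs. Of the 5 controls, 4 lay above all rpFSH pigs, and control pig 2 was the lowest control. All rpFSH pigs lay below the controls other than pig 2 for 1.40% of all tested loci, a comparison chosen after the values were seen. The log2 ratio of -0.81 (limma P = 0.00995, adjusted p = 1.00, exact permutation p = 0.0238) did not reach the limit of -1, and whether reads were shared with HSD17B6 was not tested. Over the list, 4 of 21 tested loci had a log2 ratio above 0, and the median was -0.28, or -0.09 without control pig 2. RDH11, which reduces retinal, had 231 FPKM in control pig 2, 144 in rpFSH pig 1 and 42.4 in rpFSH pig 4, against 5.96 to 27.4 elsewhere, and DHRS1 stayed between 4.42 and 9.30.

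Steroid hormone enzymes had a median log2 ratio of 0.26 over 20 tested loci, with 13 above 0, and of 0.58 without control pig 2. Lipid droplet proteins, which share the compartment of HSD17B11, had -0.02 over 19 tested loci, and 0.05 without that pig. PNPLA2, the main triglyceride lipase, averaged 5.97 ± 1.04 FPKM in rpFSH pigs and 5.48 ± 1.31 in controls, and AUP1 had 10.7 ± 2.46 and 10.9 ± 0.584 (SD, n = 5 each). STAR and CYP11A1 had log2 ratios of 0.09 (exact permutation p = 0.857) and -0.87 (exact permutation p = 0.802), which became 5.13 and 3.44 without control pig 2. The latter ratios rest on rpFSH pigs 1 and 4. STAR was 448 and 121 FPKM in these and 1.93 to 4.23 in the other rpFSH pigs. CYP11A1 was 787 and 178 FPKM, against 7.48 to 15.5.

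**Figure D5:**
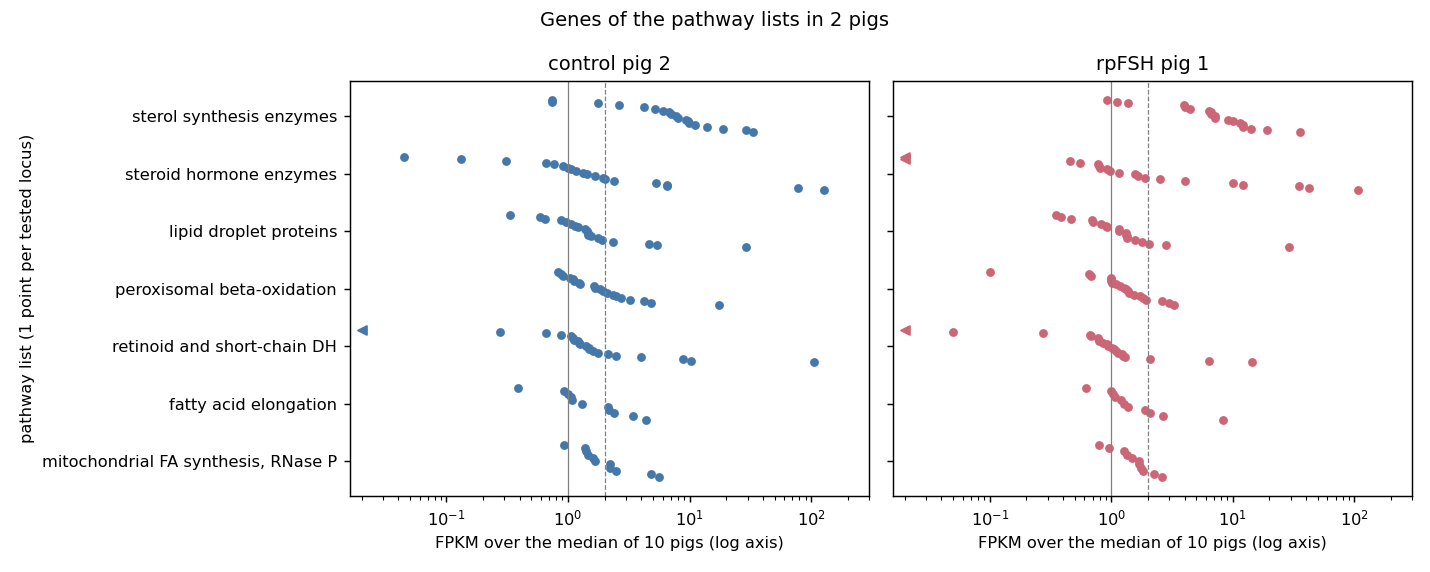
FPKM over the median of 10 pigs (x axis, log scale) for each tested locus of the 7 pathway lists in control pig 2 (left) and rpFSH pig 1 (right). Solid and dashed lines mark 1 and 2 times the median, and arrowheads at the left edge are loci at or near the floor. The sterol synthesis enzymes sit beyond 2 times in 16 of 19 loci in both pigs, while the medians of the other lists lie between 1.31 and 1.74 times in control pig 2 and between 0.941 and 1.69 times in rpFSH pig 1.

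For the 3 members with the largest SD across pigs, the tested loci with a symbol and a mean of at least 1 FPKM were ranked by Pearson's r of log2 (FPKM + 1) over the 10 pigs. This r, which rests on the pigs that stand apart, served for the ranking only and is not given. HSD17B4 was most like the TMEM169,XRCC5 locus (rho = 0.939), BCKDHB (rho = 0.952) and JKAMP (rho = 0.855). BCKDHB, a subunit of the branched-chain keto acid dehydrogenase, had 62.9 FPKM in control pig 2 and 4.96 to 14.8 in the others. HSD17B12 was most like TMEM9B, KIAA1147 and ACLY, with rho of 0.939, 0.988 and 0.939. ACLY makes the acetyl-CoA from which fatty acids and sterols are built, and it had 182 FPKM in control pig 2, 111 in rpFSH pig 1 and 7.86 to 18.0 elsewhere. HSD17B7 was most like UHRF1BP1, TIMM21 and GMPS, with rho of 0.927, 0.952 and 0.830. These genes were picked for the highest r, so the values are a description. Without the 2 pigs farthest from the median of the member, r was 0.813 to 0.869 for HSD17B4, 0.890 to 0.939 for HSD17B12 and 0.714 to 0.777 for HSD17B7. The pigs left out were control pig 2 and rpFSH pig 1 for HSD17B12 and HSD17B7. For HSD17B4 they were control pig 2 and rpFSH pig 3, so rpFSH pig 1 stayed in.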

How the data were processed

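Whole-ovary RNA was sequenced from 5 control and 5 rpFSH pigs. The authors mapped reads to Sscrofa11.1 and assembled them (HISAT2 2.0, Bowtie 0.12.2 and StringTie 1.3.0 in the submitters' processing notes), and the deposited table gives each locus and pig FPKM values and whole-number counts. How the counts were made is not given in the sources used here. Labels and methods differ on the library, poly(A) RNA on NovaSeq in the former and rRNA-depleted RNA on HiSeq in the latter. Total counts were 64873797 to 75114003.

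Loci with a mean of at least 0.1 FPKM were tested with limma 3.58.1 (trend) on log2 (FPKM + 1) in R 4.3.3, in place of Ballgown. DESeq2 1.42.0 and the quasi-likelihood test of edgeR 4.0.16, with TMM scaling, were run on the counts. All tools were tested on simulated counts with the same dispersion for every locus and no pig set apart. That test does not cover data with pigs such as control pig 2. Single values used exact permutations over 252 assignments, and pairs 100000 permutations. Members and lists were chosen with earlier results of these data known. The text names the members and, from each list, loci with an unadjusted P under 0.05, those called and at most 2 with the highest mean, beside the 3 loci most like each of 3 members. A gene named by this rule is not reported here. Other list genes (CYP1A1, INSL3, LBR, ERG28, PMVK and the observations) were named after their values were seen. RefSeq genes overlapped 99.9% of 12548 loci of the same symbol, but at the HSD17B6 locus the RefSeq table used has LOC100620470 and no gene of that symbol. Alternatives covered the pseudocount, filter, scaling, tool, replicate block and left-out pigs. The numbers of the pigs did not pair them.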

Additional observations from a re-analysis of the deposited data

Results flagged for a closer look

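In each group of 5 pigs the highest and the lowest value of each member were set against the others, and a value was marked when its gap to the nearest pig was over 0.71 of the range of the group (Dixon's 95% critical value). This marked 8 values in the 16 groups tested. The limit marks about 1 group in 20 by chance only for independent groups of normal values. These groups share the same pigs and FPKM was skewed, so the number marked cannot be judged against that rate. The mark of HSD17B2 adds nothing, since only control pig 2 brought it past the filter on low values. Control pig 2 was high for HSD17B4 (70.2 FPKM), HSD17B12 (31.7), the HSD17B14 locus (22.3), HSD17B7 (14.01) and HSD17B2 (1.52), and low for the HSD17B10 locus (6.06). In the rpFSH treatment group, rpFSH pig 1 was high for HSD17B12 (21.1) and HSD17B7 (20.0). In these pigs the summed luteal markers were 2787 and 1497 FPKM, against 32.3 to 370.3 in the others, and their part in these values was not tested.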

How the results depend on the processing

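HSD17B6 kept its direction under all 24 alternatives that gave it a value and its call under 14. The number of members called was 0 in place of 1 with a pseudocount of 0.1 or 0.01 (log2 ratio -2.34 each), with a minimum mean of 1 FPKM, with edgeR (-2.26) and with the limma coefficient as the fold change (-0.79). It ranged from 0 to 1, and the ratio of HSD17B6 from -2.66 to -1.80, with 1 pig left out. No other member was called under any alternative.

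Directions turned as follows. With 1 pig left out, the log2 ratio ranged from -3.02 to 1.50 for HSD17B2, -1.40 to 0.23 for HSD17B4, -0.63 to 1.04 for HSD17B7, -0.27 to 0.029 for HSD17B8, -0.84 to 0.47 for HSD17B12 and -0.90 to 0.23 for HSD17B14. Without control pigs 2 and 5 it was 1.08 for HSD17B2, 0.15 for HSD17B4, 0.49 for HSD17B12 and 0.13 for HSD17B14. The following were chosen after seeing the data. Without control pig 2 and rpFSH pig 1 it was 0.59 for HSD17B2, 0.066 for HSD17B4 and -0.032 for HSD17B10. When rpFSH pig 4 was left out as well, HSD17B2 had 0.055, HSD17B7 -0.11 and HSD17B10 -0.025. With edgeR and without control pig 2, it was 1.51 for HSD17B2, 0.30 for HSD17B4, 0.020 for HSD17B8, 0.53 for HSD17B12 and 0.29 for HSD17B14. With edgeR and without those 3 pigs, it was 0.14 for HSD17B2 and -0.015 for HSD17B7.

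Loci called in the lists, of 121 tested, numbered 0, and 2 with edgeR, 7 with edgeR without control pig 2, and 1 each without control pigs 2 and 5, without control pig 2 and rpFSH pig 1, without these and rpFSH pig 4, and with edgeR without those 3 pigs. Of all 15170 tested loci, these settings called 172, 468, 417, 374, 177, 150 and 183, in the same order. Pairs of members passing numbered 8, from 1 to 8 with 1 pig left out, 1 without the 2 farthest pigs and 0 without the 3 pigs. With the replicate block, HSD17B6 was called (-2.34, unadjusted limma P of 0.0278) and 167 of all loci were, beside 172. The block changed no call of a member or list locus. Pigs of the same number did not deviate together (pooled r = -0.14 across loci, 0 of 5 controls most like the pig of their own number). All tested loci numbered 468 called with edgeR and 526 with DESeq2, which gave no P for HSD17B2 and HSD17B4. HSD17B2 is limited by depth, with a count of 0 in 3 pigs.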

Other observations

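The surroundings of HSD17B6 on chromosome 5 were read for the 9 other protein-coding loci within 200 kb, chosen after the values were seen. None was called. The gene that starts next to it on the opposite strand, PRIM1 in RefSeq, lies 50 bases away and had 1.49 FPKM in control pig 2, its lowest value, and 1.91 to 4.97 in the other pigs, with a log2 ratio of -0.41. Between HSD17B6 and the RDH16,SDR9C7 locus, 113.5 kb downstream, lies a locus with a count of at most 3 in each pig. RBMS2, 156 kb upstream, went the other way with a log2 ratio of 0.43 and was also lowest in control pig 2 (2.75 FPKM).

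Some list genes beyond the rule for named genes were read as well. RDH12, a retinal reductase, had 52.4 FPKM in control pig 2, 7.10 in rpFSH pig 1 and 2.08 in rpFSH pig 4, and at most 0.697 elsewhere. FITM2, which helps to form lipid droplets, had 16.6 FPKM in control pig 2 and 8.63 in rpFSH pig 1 against 2.01 to 4.77 in the others. ELOVL6, an elongase of saturated chains, reversed the order of HSD17B12, with 14.1 FPKM in rpFSH pig 1 and 7.57 in control pig 2. HSD11B2, which inactivates cortisol, was 29.2 FPKM in rpFSH pig 1 and 4.56 in control pig 2, with at most 1.35 elsewhere. CYP19A1, the aromatase that supplies HSD17B enzymes with estrone, was lowest in control pig 2 (0.110 FPKM) and ranged up to 5.56 in rpFSH pig 2, with a log2 ratio of 0.17 (exact permutation p = 0.762).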
